A study of Mus musculus with 8 samples.

Results

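The macrophage and monocyte genes *Csf1r*, *Adgre1*, *Cd68*, *Lyz2*, *C1qa*, *C1qb*, *C1qc*, *Cd14* and *Vcam1* were examined in sorted fractions of endogenous CD8+ T cells. They were chosen by name, as 9 of the 47493 genes of the deposited table. Earlier results of these data were known when they were chosen. Levels are FPKM, that is fragments scaled by transcript length and by library depth. A gene was tested when its mean over the 8 libraries was at least 1 FPKM, which held for 12166 genes and for all 9 of these. *Adgre1*, *C1qa*, *C1qb* and *C1qc* averaged under 1 FPKM in flow-through cells and entered the test only through their level in the enriched fraction, so that the number of tested genes that were higher is no support by itself.

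All libraries came from 4 female C57BL/6 mice aged 6 to 8 weeks that had received the same treatment. B16F10 melanoma cells (200000 per mouse) were given on day 0, cyclophosphamide, which depletes lymphocytes, at 300 mg/kg on day 3, and Thy1.1-marked Pmel-1 T cells with a melanoma-specific transgenic receptor (2000000 per mouse) on day 5. Human IL-2 (10000 IU) followed daily for 3 days from day 5, and the CD4 antibody GK1.5 (200 μg) weekly for 3 weeks from day 10. On day 25, endogenous CD8+ T cells without Thy1.1 were isolated with beads from inguinal lymph nodes and spleen. They were passed over a magnetic column after labelling with a PE-conjugated antibody to IL-18Rα, the binding chain of the interleukin-18 receptor. The retained cells form the IL-18Rαhi-enriched fraction and the cells that passed form the flow-through, which was the control. The libraries of each fraction were numbered 1 to 4, and those of the same number were taken as from the same mouse. No group without tumor, without transferred cells or without anti-CD4 was analysed here, and the cells were separated with beads.

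Macrophages of the spleen and lymph nodes clear dying cells and blood-borne particles, and many of them depend on CSF1 receptor signalling. Monocytes are their circulating relatives, rich in lysozyme and CD14. Several of these genes mark classes within the family. F4/80, the product of *Adgre1*, and VCAM1 are known from red-pulp macrophages of the spleen, and C1q, the recognition molecule of the classical complement pathway, is made mainly by tissue macrophages. T cells are not known as a usual source of most of these transcripts.

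The promoters of 4 of the 9 genes were taken from the RefSeq promoter table of mouse build GRCm38.p6. Those of the other genes were not examined. *C1qb* and *C1qc* were highest in mouse 3 in both fractions, as was *C1qa*. *Lyz2* and *Cd68* were highest in mouse 2, as were others such as *Vcam1*. The order of the mice therefore does not single out these 4 promoters, which are a selection. Each runs 5′ to 3′ on the minus strand and stops before the first transcript start of either RefSeq or GENCODE, so that the *C1qc* and *Lyz2* stretches end upstream of the RefSeq start. Capitals mark AGGAAGT or GAGGAA on either strand, which are short purine-rich letters of the kind bound by ETS factors such as PU.1, the master factor of myeloid cells. *C1qb* is shown for chr4:136886201-136886450, *C1qc* for chr4:136893066-136893164, *Cd68* for chr11:69666171-69666420 and *Lyz2* for chr10:117282322-117282522.
C1qb: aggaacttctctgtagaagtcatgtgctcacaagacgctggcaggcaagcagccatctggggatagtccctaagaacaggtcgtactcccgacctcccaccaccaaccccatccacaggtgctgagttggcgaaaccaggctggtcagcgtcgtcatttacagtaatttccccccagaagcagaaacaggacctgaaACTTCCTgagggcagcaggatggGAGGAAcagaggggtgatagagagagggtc
C1qc: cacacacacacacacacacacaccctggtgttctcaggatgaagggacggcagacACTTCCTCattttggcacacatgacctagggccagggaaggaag
Cd68: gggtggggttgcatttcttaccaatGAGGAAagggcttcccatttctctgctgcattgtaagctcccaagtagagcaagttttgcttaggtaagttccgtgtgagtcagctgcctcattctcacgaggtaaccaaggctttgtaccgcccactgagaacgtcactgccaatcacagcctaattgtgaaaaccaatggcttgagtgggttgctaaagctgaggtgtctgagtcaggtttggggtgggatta
Lyz2: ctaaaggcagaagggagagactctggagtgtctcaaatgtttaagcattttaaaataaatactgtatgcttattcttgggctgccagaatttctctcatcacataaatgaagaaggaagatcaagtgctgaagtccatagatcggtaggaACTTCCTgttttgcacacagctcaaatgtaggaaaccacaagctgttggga

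AGGAAGT was found in the windows of *C1qb*, *C1qc* and *Lyz2*, which is 3 of the 4 examined. It was found in 7.69% of all 32851 promoters over the 250 bases before the RefSeq start. GAGGAA was found in *C1qb*, *C1qc* and *Cd68*, against 23.3% of all promoters. Positions are counted from the RefSeq start, not from the end of the printed stretch. In *C1qb* the AGGAAGT match lay 53 to 47 bases before the RefSeq start and the GAGGAA match 30 to 25 bases before it. In *C1qc* the matches overlapped, at 195 to 189 and 193 to 188 bases. The match of *Cd68* was at 225 to 220 bases and that of *Lyz2* at 100 to 94 bases. These are descriptions of letters, and binding was not measured. The 4 promoters were a selection and not a random draw, so their counts cannot be tested against the shares of all promoters.

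The libraries held T cells by their identity genes. *Cd8a*, the CD8α chain, was at 179 FPKM in flow-through library 1, 297 to 345 FPKM in flow-through libraries 2 to 4 and between 361 and 385 FPKM in the enriched libraries. Flow-through library 1 therefore stood apart, and its mean level of 9 T-cell identity genes was 0.78 below the mean of the libraries on the log2 scale, whereas the others lay between -0.12 and 0.23. Estimated depth was 14300000 to 17900000 fragments per library. Because of library 1, the 9 genes are also given after every library was divided by the level of its T-cell identity genes, which is called T-cell scaling here, and for other genes it is named where it ended a call. Of the 9 identity genes, 6 were higher in the enriched library in 4 of 4 mice, against 29.2% of all genes tested. Their median log2 fold change was 0.39, and 1, *Zap70*, rose (0.64, limma adjusted p = 0.0263, called in 3 of 8 fits that left out 1 library). T-cell scaling therefore takes out this difference between the fractions too, not only the low level of library 1. In bulk RNA, a larger number of cells of a type and more RNA per cell cannot be told apart.

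To ask whether macrophage and monocyte genes differed between the fractions, each was compared in 4 flow-through and 4 enriched libraries. All 9 were higher in the enriched library in 4 of 4 mice (36 of 36 pairs of libraries), and 29.2% of the genes tested were higher in 4 of 4 mice. At a limma adjusted p under 0.05, 5 of 9 rose (*Cd68*, *C1qa*, *Lyz2*, *Adgre1* and *C1qc*) and none fell, where 14.1% of all genes tested were higher and 13.7% lower. At an unadjusted p under 0.05 the same fit gave 6 higher, a count for which the share over all genes is not given here. With the mouse as a replicate block, 8 rose, all but *Cd14*, against 22.2% of all genes. The libraries of the fractions did not overlap for 4 of 9 (*Cd68*, *C1qa*, *Adgre1* and *C1qc*), against 16.4% of all genes. Of these 4, all but *Cd68* entered the test only through their enriched level, and they are also among the 5 called. The counts in this paragraph are therefore no support by themselves. The median log2 fold change was 0.98 over the 9 genes and -0.02 over all genes tested.

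T-cell scaling moved the median of all genes to -0.34 and that of the 9 genes to 0.76, and it changed the split of all calls from 1720 higher and 1664 lower to 542 higher and 1213 lower. Under it, *Cd68* and *C1qa* rose, 2 of 9 against 4.45% of all genes. Under T-cell scaling with the replicate block, which was added after the data had been seen, 7 rose, all but *Csf1r* and *Cd14*, against 5.15% of all genes. No gene of the 9 changed direction under the settings tried.

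**Figure D1:**
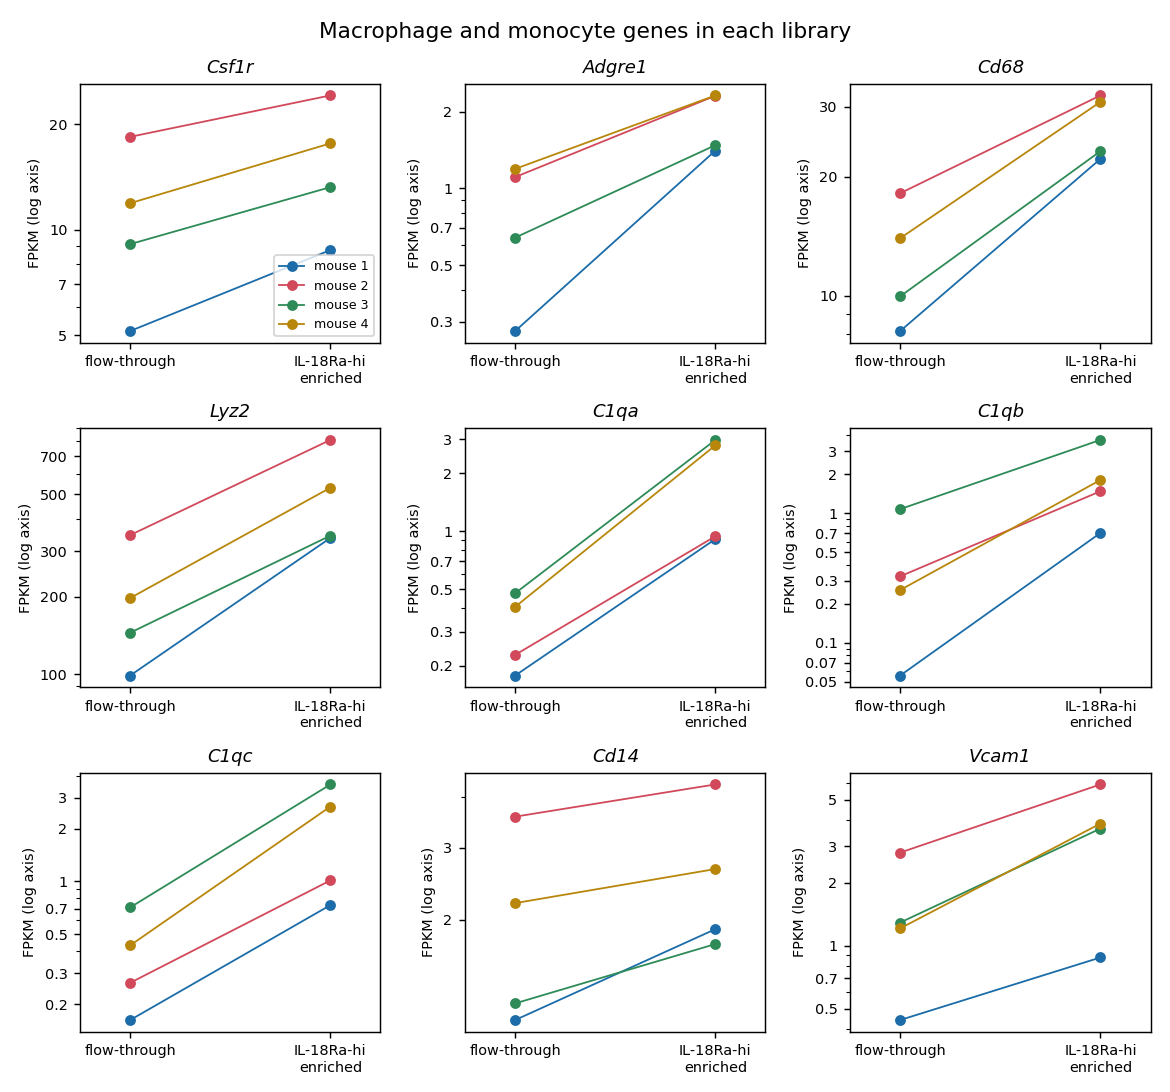
FPKM of each gene (vertical log axis, with its own range in each panel) in flow-through cells and the IL-18Rαhi-enriched library of the same mouse, 1 line per mouse. All 36 lines go up, and the mouse with the highest line is mouse 2 for *Csf1r*, *Cd68*, *Lyz2*, *Cd14* and *Vcam1* and mouse 3 for the C1q genes.

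*Lyz2* (ENSMUSG00000069516, chr10:117277331-117282321, minus strand), which encodes the bactericidal lysozyme of macrophages, monocytes and neutrophils, was by far the most abundant of the 9 and ranked 255 among the genes tested. Its levels in mice 1 to 4 were 99.0, 346.8, 145.0 and 197.7 FPKM in flow-through cells and 338.1, 811.1, 345.1 and 529.3 FPKM in enriched cells. Mouse 2 was highest in both fractions, and its flow-through library lay above the enriched libraries of mice 1 and 3, so the fractions overlapped. Means were 197 ± 108 and 506 ± 222 FPKM (SD, n = 4), a ratio of 2.57, and within mice the ratio was between 2.34 and 3.42. On the log2 scale the difference was 1.41 (SE 0.41, limma adjusted p = 0.0342), and the limma adjusted p was 0.000269 with the replicate block. By exact two-sided permutation over 70 arrangements the p was 0.0857, where 0.0286 is the smallest possible. The call was lost when flow-through library 1, 3 or 4 or enriched library 2 or 4 was left out (limma adjusted p 0.0566 to 0.0915) and under T-cell scaling (1.06, limma adjusted p = 0.0577), and with no filter on low values the limma adjusted p was 0.0704.

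*Cd68* (ENSMUSG00000018774, chr11:69664213-69666153, minus strand), a glycoprotein of lysosomes and endosomes in mononuclear phagocytes, was the gene of the 9 whose call depended least on a single library. Its levels in mice 1 to 4 were 8.15, 18.2, 9.97 and 14.0 FPKM in flow-through cells and 22.2, 32.1, 23.2 and 30.9 FPKM in enriched cells. Every enriched library lay above every flow-through library. Means were 12.6 ± 4.45 and 27.1 ± 5.12 FPKM (SD, n = 4), a ratio of 2.15, and within mice the ratio was between 1.77 and 2.72. On the log2 scale the difference was 1.09 (SE 0.23, limma adjusted p = 0.0112), and it was called in 8 of 8 fits that left out 1 library (0.92 to 1.27) and under T-cell scaling (0.76, limma adjusted p = 0.0362). The exact two-sided permutation p was 0.0286.

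*Adgre1* (ENSMUSG00000004730, chr17:57358691-57483527, plus strand), which encodes the F4/80 antigen of mouse macrophages, was low in all libraries. Its levels in mice 1 to 4 were 0.276, 1.11, 0.642 and 1.19 FPKM in flow-through cells and 1.41, 2.31, 1.48 and 2.31 FPKM in enriched cells, and the fractions did not overlap. Means were 0.805 ± 0.427 and 1.88 ± 0.502 FPKM (SD, n = 4), a ratio of 2.33. Within mice the ratio was widest in mouse 1, at 5.09, and 1.94 at the least. On the log2(FPKM + 1) scale, which understates the change of genes this low, the difference was 0.69 (SE 0.21, limma adjusted p = 0.0413, exact two-sided permutation p = 0.0286). The call was lost without flow-through library 1 or 3 or enriched library 2, 3 or 4 (limma adjusted p 0.061 to 0.11) and under T-cell scaling (0.54, limma adjusted p = 0.0745). It was also lost with a pseudocount of 0.1 (1.25, limma adjusted p = 0.0567) and with no filter on low values (limma adjusted p = 0.0693).

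*C1qa* (ENSMUSG00000036887, chr4:136895917-136898803), *C1qc* (ENSMUSG00000036896, chr4:136889804-136893065) and *C1qb* (ENSMUSG00000036905, chr4:136880129-136886187) are neighbours on the minus strand of chromosome 4 and encode the 3 chains that assemble into C1q. They had the largest ratios of means of the 9 genes. *C1qa* was at 0.178, 0.228, 0.476 and 0.405 FPKM in flow-through cells of mice 1 to 4 and at 0.911, 0.942, 2.98 and 2.80 FPKM in enriched cells. *C1qb* was at 0.0558, 0.325, 1.08 and 0.255 FPKM and then at 0.704, 1.48, 3.68 and 1.81 FPKM. *C1qc* was at 0.162, 0.264, 0.711 and 0.432 FPKM and then at 0.732, 1.01, 3.57 and 2.67 FPKM. Mouse 3 was highest and mouse 1 lowest for each chain in both fractions. The fractions did not overlap for *C1qa* and *C1qc*, whereas for *C1qb* the flow-through library of mouse 3 lay above the enriched library of mouse 1.

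Means of *C1qa* were 0.322 ± 0.142 and 1.91 ± 1.14 FPKM (SD, n = 4), a ratio of 5.94 (4.14 to 6.92 within mice). Those of *C1qb* were 0.428 ± 0.446 and 1.92 ± 1.26 FPKM, a ratio of 4.48 (3.42 to 12.6), and those of *C1qc* 0.392 ± 0.240 and 1.995 ± 1.35 FPKM, a ratio of 5.08 (3.83 to 6.17). On the log2(FPKM + 1) scale *C1qa* rose by 1.06 (SE 0.28, limma adjusted p = 0.0234) and *C1qc* by 1.01 (SE 0.32, limma adjusted p = 0.0458), each with an exact two-sided permutation p of 0.0286. The difference of *C1qb* was 0.98 (SE 0.32, limma adjusted p = 0.0531, exact permutation p = 0.0571), and with the replicate block its limma adjusted p was 0.00219. With a pseudocount of 0.1 in place of 1, *C1qb* was past the threshold (2.09, limma adjusted p = 0.0498), and with no filter on low values *C1qc* was not (limma adjusted p = 0.0814).

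These levels rest on few fragments. By the estimated depth, the flow-through libraries held between 3 and 7 fragments of *C1qa* and the enriched libraries between 16 and 54, and for *C1qb* the ranges were 1 to 17 and 13 to 70. For *Lyz2* they were 2240 to 8168 and 7608 to 18573. The call of *C1qa* was lost without enriched library 3 (0.88, limma adjusted p = 0.0579) or 4 (0.90, limma adjusted p = 0.0641). That of *C1qc* held without enriched library 1 and was lost without any other (limma adjusted p 0.0529 to 0.118), whereas *C1qb* was called without flow-through library 3 (limma adjusted p = 0.0459) or enriched library 1 (0.0275). Under T-cell scaling *C1qa* kept its call (0.92, limma adjusted p = 0.0437) and *C1qc* lost it (0.87, limma adjusted p = 0.0725), and *C1qb* was at 0.86 (limma adjusted p = 0.0826).

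The proportions of the chains were compared within each library. The ratio of *C1qc* to *C1qa* within a library was 1.16 ± 0.245 in flow-through cells and 1.01 ± 0.167 in enriched cells (SD, n = 4), and it was lower in the enriched library of 4 of 4 mice. The ratio of *C1qb* to *C1qa* was 1.16 ± 0.871 and 1.05 ± 0.425, and it was higher in 3 of 4 mice. The spread of the *C1qb* ratio was wider in the flow-through, where it went from 0.314 in mouse 1 to 2.26 in mouse 3.

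*Csf1r* (ENSMUSG00000024621, chr18:61100598-61132149, plus strand), the receptor for CSF1 and IL-34 on which many macrophages depend, differed less than the genes above. Its levels in mice 1 to 4 were 5.14, 18.4, 9.10 and 11.9 FPKM in flow-through cells and 8.76, 24.2, 13.2 and 17.7 FPKM in enriched cells. The mice kept the same order in both fractions, and the spread between mice was wider than the difference between the fractions. Means were 11.1 ± 5.59 and 16.0 ± 6.58 FPKM (SD, n = 4), a ratio of 1.43, and the ratio within mice was between 1.31 and 1.70. The log2 fold change of 0.52 was not past the threshold without the block (SE 0.38, limma adjusted p = 0.339, exact two-sided permutation p = 0.314), and it was with the replicate block (SE 0.08, limma adjusted p = 0.00273). Under T-cell scaling it was 0.20 (limma adjusted p = 0.62, and 0.518 with the block). Of its 5774 exonic bases, 873 (15.12%) overlap exons of *Hmgxb3* on the opposite strand, and the values do not use strand, so that its level is uncertain to that extent.

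*Cd14* (ENSMUSG00000051439, chr18:36725067-36726798, minus strand), the co-receptor that presents lipopolysaccharide to TLR4, showed the smallest difference. Its levels in mice 1 to 4 were 1.14, 3.58, 1.25 and 2.20 FPKM in flow-through cells and 1.90, 4.29, 1.74 and 2.66 FPKM in enriched cells. The fractions overlapped over most of their range. Means were 2.04 ± 1.13 and 2.65 ± 1.16 FPKM (SD, n = 4), a ratio of 1.298. On the log2 scale the difference was 0.28 (SE 0.29, limma adjusted p = 0.498, exact two-sided permutation p = 0.429), and it stayed short of the threshold with the replicate block (limma adjusted p = 0.0631) and under T-cell scaling (0.06, limma adjusted p = 0.854).

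*Vcam1* (ENSMUSG00000027962, chr3:116109949-116129688, minus strand) encodes an adhesion molecule of red-pulp macrophages, activated endothelium and stromal cells. Its levels in mice 1 to 4 were 0.442, 2.79, 1.29 and 1.21 FPKM in flow-through cells and 0.880, 5.91, 3.64 and 3.84 FPKM in enriched cells. Mouse 1 was far lower than the others in both, and its enriched library lay below the flow-through libraries of the other mice. Means were 1.43 ± 0.983 and 3.57 ± 2.07 FPKM (SD, n = 4), a ratio of 2.49, and within mice the ratio was between 1.99 and 3.17. The log2 fold change of 0.85 was not past the threshold without the block (SE 0.42, limma adjusted p = 0.164, exact two-sided permutation p = 0.114), and it was with the replicate block (limma adjusted p = 0.0046). Without enriched library 1 it was 1.23 (limma adjusted p = 0.0308), and under T-cell scaling 0.67 (limma adjusted p = 0.204). An antisense transcript, *Gm43109*, shares 61 of its 8870 exonic bases (0.688%).

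**Figure D2:**
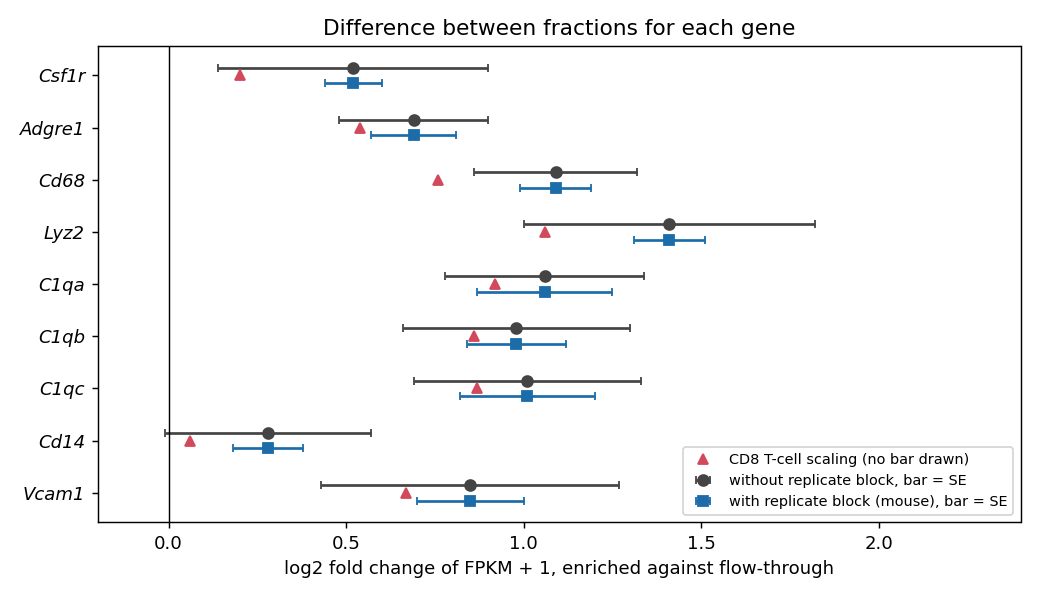
Log2 fold change of FPKM + 1 between the enriched fraction and the flow-through (horizontal axis) for each gene, with bars of 1 SE for the fit without and with the mouse as a replicate block, and the value after T-cell scaling. The bars shrink under the block, for example for *Csf1r* (SE 0.38 and 0.08), and T-cell scaling moves all 9 values toward 0, to 0.20 for *Csf1r* and 0.06 for *Cd14*.

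Levels per transcript length could be ordered within each fraction. In both, *Lyz2* was highest, above *Cd68* in 4 of 4 libraries with no overlap, followed by *Cd68* and *Csf1r*, whose ranges overlapped. *Csf1r* lay above the remaining genes, next to it *Cd14* at 2.04 FPKM in flow-through cells and *Vcam1* at 3.57 FPKM in enriched cells, in 4 of 4 libraries and without overlap. The remaining neighbours in the order overlapped in each fraction, and the C1q chains could not be told from each other or, in the enriched fraction, from *Adgre1* (1.88 FPKM).

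Ratios within a library do not depend on how libraries are scaled, and they showed how unequally the genes differed. *Lyz2* was 17.7 ± 1.63 times *Csf1r* in the flow-through (15.9 to 19.3) and 32.1 ± 5.33 times in enriched cells (26.1 to 38.6), with no overlap. The ratio of *Cd68* to *Csf1r* was 1.21 ± 0.262 and 1.84 ± 0.503, that of *Adgre1* 0.0711 and 0.125, that of *Vcam1* 0.120 and 0.209, and that of *C1qa* 0.0333 and 0.132. All of these ratios were higher in the enriched library of 4 of 4 mice, whereas that of *Cd14* was lower in 4 of 4 (0.184 and 0.169). *Lyz2* and *Cd68* were closer to a common change, with 14.98 and 18.1 times as much *Lyz2*.

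**Figure D3:**
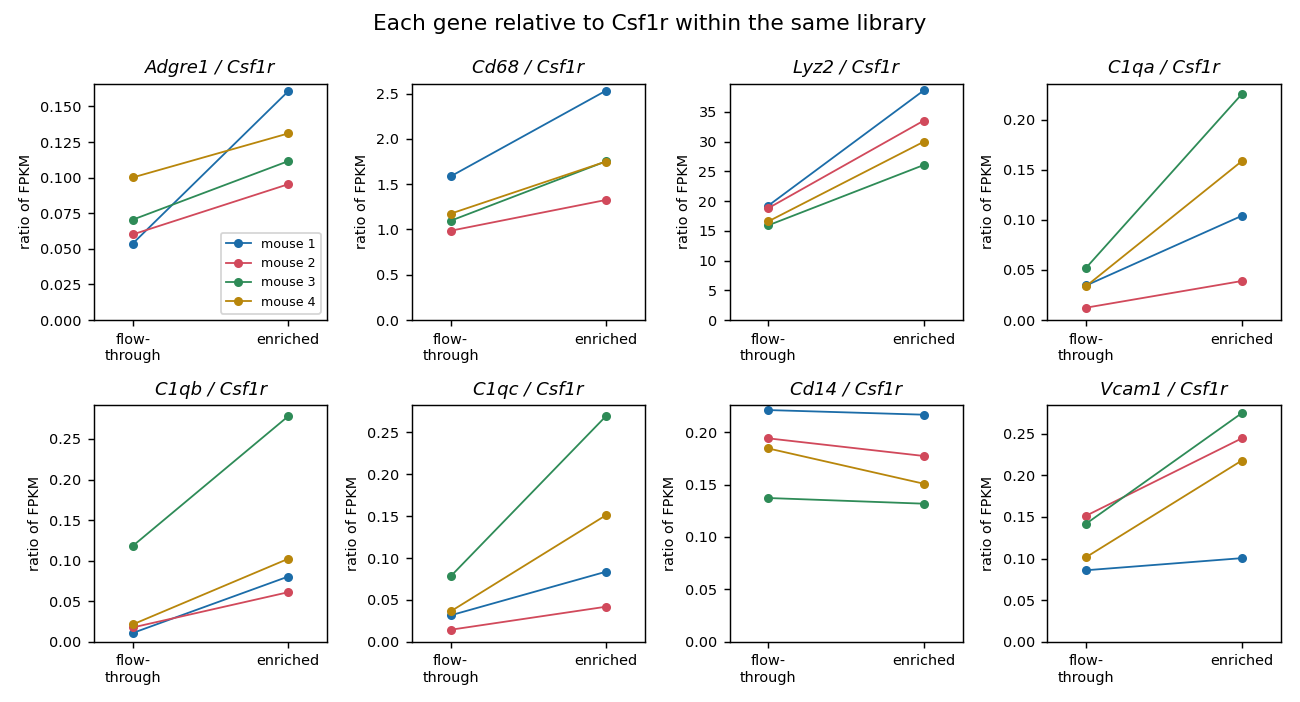
Ratio of the FPKM of each gene to that of *Csf1r* in the same library (vertical axis from 0, with its own range in each panel), 1 line per mouse. The lines rise for every gene but *Cd14*, for which all 4 fall slightly, and mouse 3 has the highest C1q ratios in both fractions.

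The genes fell into sets by the order of the mice. Over the 8 libraries, after the mean of each fraction was taken away, Pearson's r of log2(FPKM + 1) was 0.98 between *C1qa* and *C1qc* and 0.88 between *C1qb* and *C1qc*. It was 0.96 between *Csf1r* and *Lyz2*, 0.91 between *Csf1r* and *Cd14*, 0.92 between *Csf1r* and *Vcam1* and 0.96 between *Cd68* and *Lyz2*. Across the sets it was lower, with 0.07 between *C1qa* and *Csf1r*, -0.17 between *C1qa* and *Lyz2* and -0.29 between *C1qa* and *Cd14*. These are descriptions, as the 8 libraries came from 4 mice and share their depth and composition. *Vcam1* lay nearer to *Csf1r* (0.92) than to *C1qa* (0.25), *C1qc* (0.34) or *C1qb* (0.48).

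**Figure D4:**
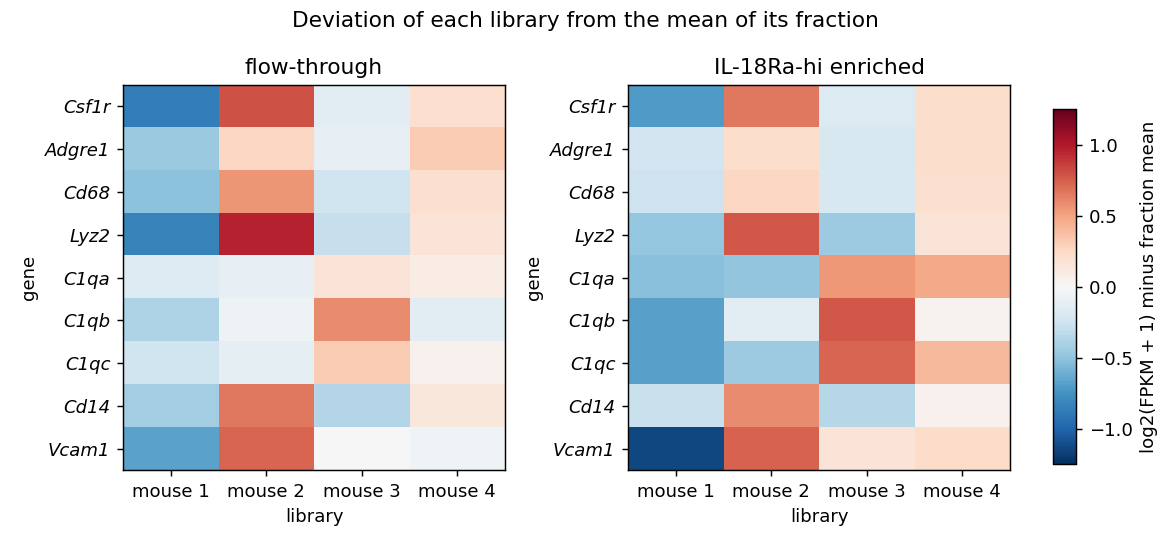
Deviation of log2(FPKM + 1) of each library from the mean of its fraction (color), with genes in rows and mice in columns. Mouse 2 is high for *Csf1r*, *Cd68*, *Lyz2*, *Cd14* and *Vcam1*, mouse 3 is high for the C1q chains, and mouse 1 is low for nearly all genes in both fractions.

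The genes most like each of these were taken from 9326 genes that averaged 5 FPKM or more, by Pearson's r over the 8 libraries. For *Csf1r* they were *Serpinb1a* (0.997), *Ckap4* (0.993), *Cerk* (0.993) and 2 immunoglobulin variable segments (0.991 each). For *Lyz2* they were *Mcpt8* (0.994), *Tmbim6* (0.993), *Ebi3* (0.992), *Anxa1* (0.991) and *Prss34* (0.991). *Mcpt8* and *Prss34* encode proteases known from basophils. *Vcam1* was followed by *Fkbp15* (0.982), *Slc29a3* (0.971), *Sbno2* (0.965) and 2 further immunoglobulin segments (0.981 and 0.967). For the mean of the C1q chains the values were lower, from *Lclat1* (0.958), *Xrn1* (0.949), *Cep135* (0.948) and *Zfp282* (0.946) to *Wdr44* (0.940).

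Genes of macrophage classes were then read in the same fit. For these and the later lists, the share of all genes tested that were higher was 14.1%, and 22.2% with the replicate block. Some called genes of the lists averaged under 1 FPKM in flow-through cells, such as *Xcr1* (0.688), *Csf2* (0.576) and *Klra8* (0.290). They were tested only through their enriched level, so the list counts are no support by themselves. Of 12 red-pulp macrophage genes, 5 were tested, 2 rose and 4 rose with the replicate block, with a median log2 fold change of 0.79. *Hmox1*, which degrades heme, went from 2.68 ± 0.933 to 8.72 ± 1.46 FPKM (log2 fold change 1.43, limma adjusted p = 0.00271), and the receptor kinase gene *Axl* from 3.63 ± 0.543 to 8.89 ± 1.47 FPKM (1.09, limma adjusted p = 0.00172). *Slc40a1*, the iron exporter, went the other way in 4 of 4 mice, from 27.7 ± 19.5 to 10.3 ± 4.48 FPKM (-1.21, limma adjusted p = 0.072, and 0.00148 with the replicate block). Its flow-through library 1 was at 56.1 FPKM, and of 6 erythroid markers 1 fell, and 4 with the block, with sums of 777 to 2213 FPKM in flow-through and 166 to 1005 FPKM in enriched libraries. The marker that fell was *Car1*, from 882 to 153 FPKM (-2.61, limma adjusted p = 0.00302). *Spic*, *Cd5l*, *Cd163*, *Mrc1*, *Mertk*, *Timd4* and *Fcna* were under the filter. *Cd163* was at 0.673 FPKM in flow-through cells and 0.531 FPKM in enriched cells, and *Fcna* at 0.219 and 1.52 FPKM. None of 5 marginal-zone and sinus macrophage genes was tested, and their summed level was 0.372 to 0.843 FPKM in flow-through cells and 0.621 to 1.88 FPKM in enriched cells.

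Of 11 monocyte genes, 10 were tested and 5 rose, with a median of 1.15, and 9 rose with the replicate block. *Fn1*, fibronectin, went from 7.77 ± 2.96 to 26.4 ± 8.12 FPKM (log2 fold change 1.65, limma adjusted p = 0.00417) and *Itgam*, the CD11b chain, from 3.42 ± 1.52 to 9.61 ± 3.60 FPKM (1.27, limma adjusted p = 0.015). The chemokine receptor genes *Ccr2* (1.31, limma adjusted p = 0.0187) and *Cx3cr1* (1.02, limma adjusted p = 0.0021), which activated T cells also express, and *Treml4* (1.28, limma adjusted p = 0.0259) rose too. *Treml4* lost its call without flow-through library 3 or enriched library 2, 3 or 4 (limma adjusted p 0.0562 to 0.0727). *Ccr2* lost its call without flow-through library 3 or enriched library 2 or 4 (limma adjusted p 0.0555 to 0.0565). *Ly6c2* was at 563 and 736 FPKM (0.44, limma adjusted p = 0.221) and *Plac8* at 559 and 478 FPKM (-0.16, limma adjusted p = 0.764), and both are also known from T cells.

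Of 12 pan-myeloid genes, 9 were tested, 2 rose, and 9 rose with the replicate block. They were *Mpeg1*, the pore-forming perforin-2 of macrophages (24.1 ± 11.0 to 71.5 ± 25.7 FPKM, log2 fold change 1.57, limma adjusted p = 0.0188), and *Fcer1g*, the Fc receptor γ chain (1.15, limma adjusted p = 0.0425). *Mpeg1* lost its call without flow-through library 3 or enriched library 2 or 4 (limma adjusted p 0.0545 to 0.0568), and *Fcer1g* kept it only without flow-through library 2 (0.0194) or enriched library 1 (0.0309), and lost it under T-cell scaling (0.0852). The adaptor gene *Tyrobp* was at 104 and 221 FPKM (1.15, limma adjusted p = 0.0525). Of 7 myeloid transcription factors tested, *Maf* (1.71, limma adjusted p = 0.000463), which T cells also use, and *Irf5* (1.28, limma adjusted p = 0.0119) rose, whereas *Spi1*, which encodes PU.1, was at 22.3 ± 9.33 and 36.7 ± 14.5 FPKM (0.70, limma adjusted p = 0.187, and 0.000605 with the block).

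The partners of the 9 genes were also read. Of 6 growth factors and receptors, 5 were tested. *Csf1*, a ligand of CSF1R, rose from 1.37 ± 0.477 to 2.81 ± 0.880 FPKM (log2 fold change 0.68, limma adjusted p = 0.0415), and *Csf2* rose (1.00, limma adjusted p = 0.0351), neither under T-cell scaling. The call of *Csf1* held without flow-through library 2 or 4 or enriched library 3 and was lost without each of the other 5 (limma adjusted p 0.0544 to 0.11). That of *Csf2* held without flow-through library 2 or enriched library 1 and was lost without each of the other 6 (limma adjusted p 0.0573 to 0.0957). *Il34*, the other ligand, averaged 0.077 FPKM in flow-through cells and was listed at 0 in the enriched fraction. Of 13 complement genes other than C1q, 6 were tested. *Itgax*, a chain of complement receptor 4, rose (1.65, limma adjusted p = 0.00617). *C3* was at 9.08 and 19.6 FPKM (1.04, limma adjusted p = 0.121).

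Of 10 partners of CD14 and TLR4, all were tested and 3 rose. The adaptor genes *Myd88* (log2 fold change 0.48, limma adjusted p = 0.00585) and *Ticam1* (0.47, limma adjusted p = 0.0039) and the TLR4 cofactor gene *Ly96* (0.80, limma adjusted p = 0.0415) rose, and none of them passed under T-cell scaling (limma adjusted p = 0.587, 0.495 and 0.089). *Ly96* also lost its call without flow-through library 3 or 4 or enriched library 2, 3 or 4 (limma adjusted p 0.0551 to 0.109). *Tlr4* itself was at 0.866 and 1.20 FPKM (0.25, limma adjusted p = 0.461). Among 4 tested integrin chains of VCAM1 receptors and their relatives, *Itgb1* (158 ± 16.0 to 463 ± 49.6 FPKM, 1.54, limma adjusted p = 0.0002), *Itgb2* (0.88, limma adjusted p = 0.00619) and *Itgb7* (0.83, limma adjusted p = 0.0094) rose. *Itga4*, the α4 chain that binds VCAM1, fell from 39.4 ± 1.96 to 25.0 ± 4.41 FPKM (-0.65, limma adjusted p = 0.00758).

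Markers of other cell types were read in the same fit, and most of those of dendritic and NK cells rose with these genes. Of 7 dendritic cell markers, 5 rose (median 1.18), with a summed level of 101 to 134 FPKM in flow-through cells and 128 to 179 FPKM in enriched cells. *Bst2*, the largest part of that sum, was at 104 and 111 FPKM (log2 fold change 0.09, limma adjusted p = 0.544). *Zbtb46* was at 4.70 and 3.70 FPKM (-0.23, limma adjusted p = 0.413). *Xcr1* went from 0.688 to 4.75 FPKM (log2 fold change 1.76, limma adjusted p = 0.00167) and *Clec9a* from 2.39 to 9.65 FPKM (1.63, limma adjusted p = 0.00703). *Cd209a* (1.35, limma adjusted p = 0.0111), *Siglech* (0.96, limma adjusted p = 0.0079) and *Flt3* (1.18, limma adjusted p = 0.0327) rose too, and *Flt3* lost its call without flow-through library 1 or 3 or enriched library 2, 3 or 4 (0.0563 to 0.0899) and under T-cell scaling (limma adjusted p = 0.0555). Of 4 NK-cell markers, *Ncr1*, *Klrb1c* and *Klra8* rose (median 1.63), with sums of 12.0 to 22.4 and 32.6 to 74.2 FPKM. The authors read *Ncr1* and *Klrb1c* as NK receptor genes raised in the enriched CD8+ T cells themselves. Whether T cells or NK cells held these transcripts was not tested. *Eomes* was at 13.5 and 14.2 FPKM (0.08, limma adjusted p = 0.659). Of 8 neutrophil markers tested, 0 rose or fell by limma and 0 had an unadjusted p under 0.05 (median 0.07), and 2 rose (*S100a8* and *Elane*) and 1 fell (*Mpo*) with the replicate block. Their sums were 393 to 2271 and 421 to 2708 FPKM, and *Ly6g*, which defines mature neutrophils, averaged 0.258 and 0.153 FPKM. Of 4 B-cell markers tested, 0 rose or fell by limma and 0 had an unadjusted p under 0.05 (median -0.01), and *Cd79b* rose with the block, with sums of 19.4 to 53.2 and 25.8 to 64.8 FPKM. Of 14 stromal and endothelial markers, 1 was tested, *Pecam1* (25.3 and 22.9 FPKM, -0.10, limma adjusted p = 0.744), 2 (*Ccl19* and *Pdgfra*) were listed at 0 in every library, and *Cdh5* averaged 0.134 and 0.341 FPKM. The part of any of these cell types in the levels of the 9 genes was not tested.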

How the data were processed

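RNA was sequenced from 4 flow-through and 4 IL-18Rαhi-enriched libraries. The authors deposited FPKM per gene, made from stranded poly(A) libraries read as paired ends, mapped to mm10 with TopHat (version not given in the sources used here) and estimated with Cufflinks 2.1.1, with correction for multi-mapped reads and fragment bias. Other options were defaults, which do not use strand, so overlapping genes and paralogs are uncertain (*Lyz2* has the paralog *Lyz1*). The annotation release was not given in the sources used here. Coordinates are from GENCODE M21, which held 98.9% of the identifiers, and are on mm10.

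Genes averaging 1 FPKM or more over the 8 libraries were tested with limma 3.58.1 (R 4.3.3) on log2(FPKM + 1), with a variance trend, no block, two-sided, with Benjamini-Hochberg adjustment over 12166 genes and a threshold of 0.05. FPKM carries no exact depth. It was estimated from the lowest values (under 0.2 FPKM) of genes with 1 annotated transcript, 1500 bases or longer, no count model was used, and precision at low levels is limited. Labels give a fraction and a number, and the number was taken as the mouse. Deviations of same-numbered libraries correlated at 0.66, 0.589, 0.308 and 0.471. Those of differently numbered libraries correlated between -0.6 and 0.412, so the pairing is inferred. Single genes were also compared by exact permutation over 70 arrangements, of which 2 give the smallest p, 0.0286. T-cell scaling divided each library by the geometric mean of 9 T-cell identity genes (FPKM + 1). Where a gene name occurred more than once, the entry of highest mean was used.

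The 9 genes and the 16 lists (138 genes, of which *Irf8* was not analysed here) were chosen with earlier results of these data known. Of each list, genes named were the 3 of highest mean and up to 5 past the threshold without overlap, and for likeness the 5 of highest r. *Treml4*, *Csf2*, *Tlr4*, *Zbtb46*, *Cdh5*, *Ccl19*, *Pdgfra*, *Ly6g*, *Il34* and the genes listed as under the filter were named after their values were seen. Some results are not reported here. The fits were tested on simulated data. Alternatives were another pseudocount, other filters, the replicate block, quantile normalization, T-cell scaling, no trend and each library left out, and 5 more fits were added after the data had been seen (T-cell scaling with the block, and each mouse left out with the block). Figures and summaries were made with Python 3.11.15.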

Additional observations from a re-analysis of the deposited data

Results flagged for a closer look

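The ratio of *C1qb* to *Csf1r* in flow-through library 3 was 0.118, and the other flow-through libraries lay between 0.0109 and 0.0214. Its gap to the next library took up 0.901 of the range of the group, above Dixon's 95% critical value for 4 samples. Of 40 groups of 4 libraries examined (genes and ratios in each fraction), this was the single one past that value, where chance gives about 2. In the same library *C1qb* was at 1.08 FPKM, and the cause was not tested.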

How the results depend on the processing

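Of the 9 genes, 5 rose without the block and 8 with the mouse as a replicate block, against 14.1% and 22.2% of all genes tested. The number was 2 with no filter on low values, and 2 with a mean of at least 5 FPKM, where 3 of the genes were tested. Those fits called 1669 and 1338 of all genes higher, and their shares are not given here. Under T-cell scaling 2 of the 9 rose, against 4.45% of all genes. With quantile normalization or no variance trend, where 1755 and 1684 of 12166 genes were higher, the number of the 9 was 5. It was also 5 with a pseudocount of 0.1, where *C1qb* was called (limma adjusted p = 0.0498) and *Adgre1* was not (0.0567). With that pseudocount, 1702 of 12166 genes were higher. The number of the 9 was 1 to 7 when single libraries were left out, lowest without enriched library 4 and highest without enriched library 1. With each mouse left out under the block, which was chosen after seeing the data, 8 rose in each of 4 fits. In those fits 1841 to 2519 of all genes were higher. The median log2 fold change of the 9 genes was 1.25 with a pseudocount of 0.1 and 0.76 to 1.21 when single libraries were left out. Over all 12166 genes tested, 2705 were higher and 2763 lower with the replicate block. Of 12179 genes tested under T-cell scaling, 542 were higher (4.45%), and 627 with the block (5.15%). When single libraries were left out, 1124 to 1802 were higher and 940 to 1781 lower. *Plac8* was between -0.46 and 0.10 when single libraries were left out and changed direction, to 0.10, without flow-through library 2. The causes of these shifts were not tested. Depth limits low genes such as *C1qb*, with estimates of 1 to 17 fragments per flow-through library.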
